A study of Mus musculus with 8 samples.

Results

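The comparison described here sets EpCAM+ cells of mouse liver after 12 h of culture against the same kind of cells taken straight after sorting. It uses 4 of the 8 libraries of the series, 2 of fresh cells and 2 of cultures at 12 h, chosen by their labels, and it covers every gene of the table. The donors were healthy adult males of the C57/B6 strain, and their liver cells were sorted for EpCAM, an adhesion molecule on the surface of bile duct epithelium. Fresh cells had no culture or treatment, and the 12 h cells were kept in Matrigel, a gel of basement membrane proteins, with organoid medium. The series also holds 1 library at 24 h, 1 titled 48h whose other labels give 24 h, and 2 of organoids grown for 6 days. These are used below for the later course of single genes. The shared estimate of spread comes from the pairs of fresh, 12 h and organoid libraries, as a single library has no spread. A wide organoid pair can thus keep a gene from passing. No label says that the libraries of a group came from separate mice or cultures, so the p-values measure only how far these libraries spread, and that spread may be technical.

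Bile duct epithelial cells, or cholangiocytes, line the ducts that carry bile, modify it by moving ions, water and solutes across the cell layer, and are normally at rest. When they are taken out of the liver they lose the lumen, their neighbours and the matrix of the duct, and a fraction of them can found organoids in a rich medium. The well known responses to this step are early stress genes and the loss of mature markers. The account below is mainly about other functions, such as mitochondria, RNA machinery, nucleotide handling, ion transport, surface receptors and secreted factors.

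Sequencing depth, read back from the values, was between 15252714 and 28463012 effective reads in the 4 libraries, and between 10605 and 10926 genes reached 1 RPKM, which stands for reads scaled to the length of a gene and to the depth of its library. The duct markers Epcam and Sox9 were high in all 4, with Epcam at 1058 and 1144 RPKM in fresh cells and 863 and 1175 at 12 h, and neither passed the test. Over the whole list of 23 tested duct genes 1 rose and 1 fell, or 8.7% called against 6.81% of all genes. In both 12 h libraries 4 were higher and 13 lower, where over all tested genes 38.6% were higher and 23.6% lower. The median log2 change of the list was -1.04, with 0.24 over all genes. Its summed level went from 33659 and 36855 RPKM to 17411 and 21430. Krt19, a keratin of bile ducts, read 1650 and 1062 RPKM in fresh cells and 1128 and 257 at 12 h, with 12 h replicate 1 inside the range of the fresh libraries and replicate 2 below it. Of 25 hepatocyte markers, 20 were tested and 15 fell, where 3.72% of all tested genes fell. The summed level of these markers went from 1845 and 1416 RPKM to 152 and 194. Cd14 and Csf1r were 2 of the 4 immune markers tested and both fell. Of the 4 tested, 0 passed as higher and 1 had a log2 change above 0. Ptprc and Cd3e, which define blood cells and T cells, were at or near 0 in all 4 libraries. Gpm6a and Nkain4 were the 2 of 8 mesothelial markers tested and both fell. The summed level of the whole mesothelial list went from 25.8 and 35.9 RPKM to 0.00181 and 0.0138. In bulk RNA fewer cells of a type and less RNA per cell cannot be told apart, and how far the makeup of the sort contributes to the changes below was not tested.

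Of 12900 genes tested, 878 passed an adjusted p of 0.05, or 6.81%, with 398 higher at 12 h (3.09%) and 480 lower (3.72%). Both libraries of one group lay above both of the other for each of these genes, but this was also so for many that did not pass, namely 38.6% of all tested genes in the higher direction and 23.6% in the lower. Genes that rose had a median of 6.50 RPKM in fresh cells and 33.6 at 12 h. Those that fell went from a median of 6.33 RPKM to 0.0230, and 149 of them were listed at 0 in both 12 h libraries. The typical gene tested was 0.24 higher on the log2(RPKM + 1) scale at 12 h. Centring each library on its median moved this by 0.37, to -0.13, so that its direction turned. With centring, 300 genes were higher and 839 lower, and with only genes of at least 5 RPKM on average the split was 403 higher and 197 lower. The calls need all 4 libraries, since 0 genes passed in either direction without fresh replicate 1, without fresh replicate 2 or without 12 h replicate 1, and 25 higher and 69 lower without 12 h replicate 2. At an unadjusted p under 0.05 those 3 smaller sets still gave between 779 and 1967 higher and between 877 and 1491 lower genes.

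**Figure D1:**
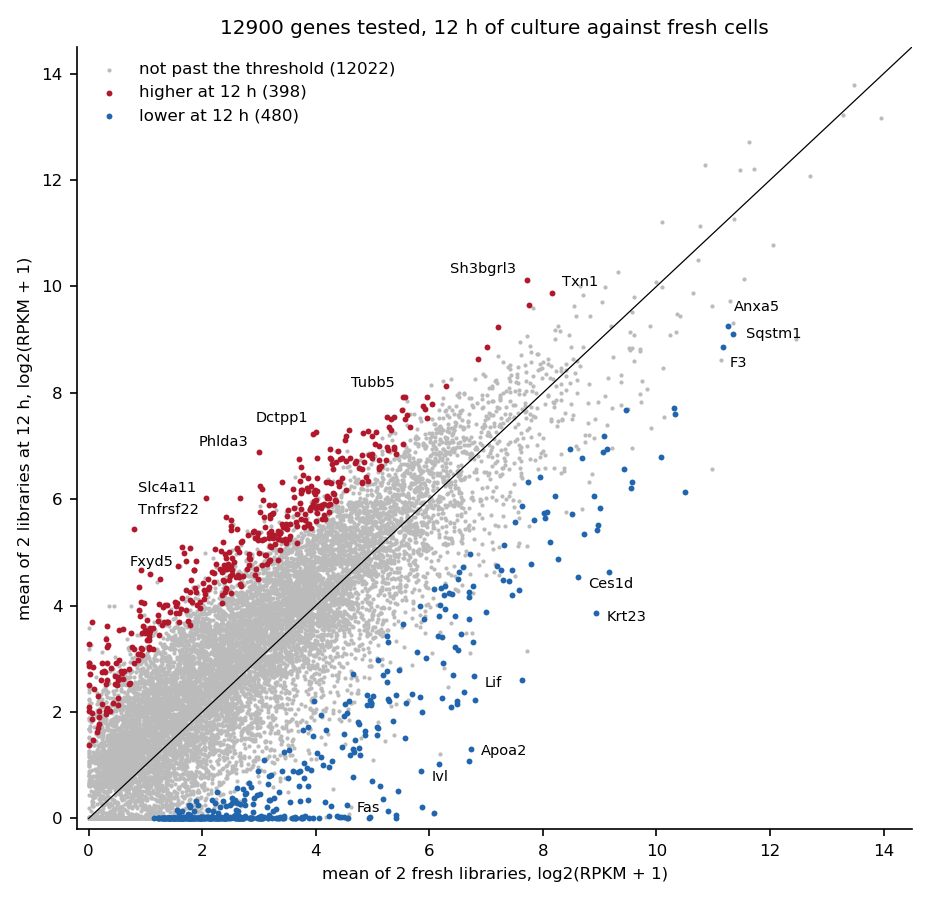
Each point is 1 of the 12900 genes tested, with the mean of the 2 fresh libraries on the horizontal axis and the mean of the 2 libraries at 12 h on the vertical axis, both as log2(RPKM + 1); the line marks equal means. The 398 genes that passed the test as higher lie above the line, and among the 480 that were lower many sit at 0 on the vertical axis.

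The 100 most abundant genes held 40.8% and 41.8% of the summed RPKM in the fresh libraries and 31.4% and 32.7% at 12 h. For the 10 most abundant genes the groups overlapped, with 18.2% and 18.4% in fresh cells and 16.4% and 18.2% at 12 h. At the same time fewer genes had any signal, with 19279 and 21132 genes above 0 in fresh cells and 15632 and 16157 at 12 h, although the depths overlapped. Sprr1a, which encodes a cornified envelope precursor, accounted for the largest loss among single genes apart from Spp1, with 5594 and 5669 RPKM in fresh cells and 424 and 609 at 12 h, and did not pass the test (SE 1.65). Its 2 organoid libraries, which enter the shared estimate of spread, lay far apart, at 2383 and 39.1 RPKM. Among genes of very high level that passed, Sqstm1 (the autophagy receptor p62), F3 (tissue factor) and Anxa5 (a phospholipid-binding annexin) fell. Sqstm1 read 2315 and 2921 RPKM in fresh cells and 462 and 634 at 12 h. Anxa5 went from 2266 and 2610 RPKM to 718 and 507, while its relative Anxa2 read 1138 and 1042 and then 2831 and 1925 without passing. Apart from genes of the mitochondrial genome, the gains in level were led by Clu and Fth1, neither of which passed, and among genes that passed by Sh3bgrl3, Txn1, Banf1, Gstp1 and Nedd8.

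On the log2(RPKM + 1) scale the largest rise among the genes named here was that of Tnfrsf22. It and its relative Tnfrsf23 encode mouse decoy receptors for the death ligand TRAIL, and they lie next to each other on chromosome 7 (GRCm38, 143634806 to 143649661 and 143665809 to 143685872). Tnfrsf22 read 0.793 and 0.683 RPKM in fresh cells and 34.6 and 50.3 at 12 h, a 57.5-fold higher mean (log2 change 4.62, SE 0.38, adjusted p = 0.0189). Tnfrsf23 read 3.26 and 1.14 RPKM in fresh cells and 31.4 and 30.1 at 12 h (adjusted p = 0.0239). These are close relatives, and how reads matching both were counted was not stated in the labels. Over the family the picture was split, since 2 of 17 tested members rose and 2 fell, or 23.5% called against 6.81% of all genes. Fas, the death receptor, stood at 22.9 and 21.7 RPKM in fresh cells and was listed at 0 in both 12 h libraries (adjusted p = 0.0189). Tnfrsf1b, the second TNF receptor, fell 13-fold from 13.4 and 18.7 RPKM to 1.30 and 1.17. Tnfsf10, the gene of TRAIL itself, read 4.42 and 3.18 RPKM and then 0.780 and 0.0437 (adjusted p = 0.0443).

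Several other large rises belonged to genes that are low in fresh cells. Slc4a11, a membrane transporter best known from the corneal endothelium, read 2.89 and 3.54 RPKM in fresh cells and 65.7 and 62.6 at 12 h, 20-fold higher (log2 change 3.95, SE 0.76, adjusted p = 0.0365). Phlda3, a p53 target whose product restrains Akt, went from 7.36 and 6.67 RPKM to 109 and 126 (adjusted p = 0.0189). The replicates of both genes were tight in each group. Nrm, a protein of the inner nuclear membrane, rose 20.6-fold to 18.8 and 27.3 RPKM. Banf1, a small DNA-binding protein that tethers chromatin to the nuclear envelope, rose 3.72-fold from 247 and 184 RPKM to 760 and 841. Cep78, a centrosomal protein, read 0.206 and 0.290 RPKM in fresh cells and 10.2 and 12.3 at 12 h. Igfbp3, which binds insulin-like growth factors, rose 15.6-fold, and Zdhhc12, a palmitoyltransferase, 11.5-fold. Rgs19, a protein that speeds GTP hydrolysis by inhibitory G proteins, went from 6.67 and 7.96 RPKM to 66.8 and 78.0, while Gna14, a G protein alpha subunit, read 3.91 and 4.84 RPKM in fresh cells and 0.0141 and 0 at 12 h.

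**Figure D2:**
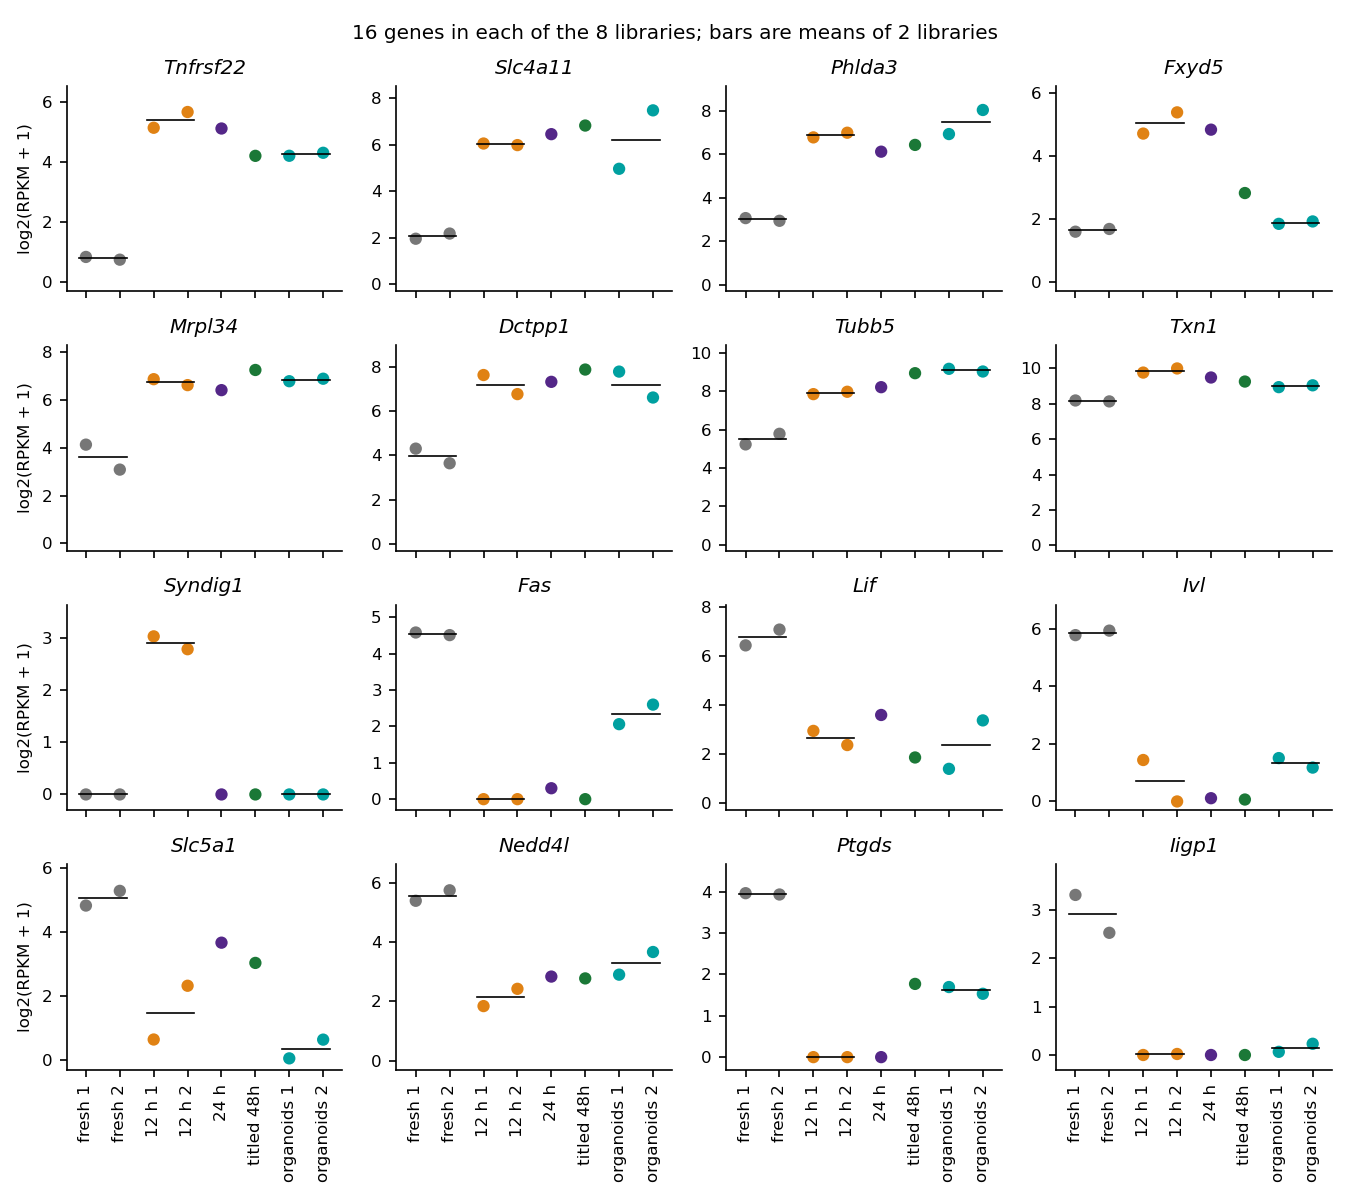
Each panel gives 1 gene as log2(RPKM + 1) in the 8 libraries, with bars at the mean of groups of 2. Tnfrsf22 and Phlda3 stay up in the later libraries, Fxyd5 comes back down, Syndig1 is seen at 12 h alone among these libraries, and Fas, Lif and Ivl are low in every library after the fresh ones.

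Mitochondrial ribosomes build the few proteins encoded in mitochondrial DNA, and all of their own proteins come from nuclear genes and must be imported. Of 77 tested mitochondrial ribosomal protein genes, 8 rose and 0 fell at an adjusted p of 0.05 (limma), so that 10.4% of them were called against 6.81% of all genes. Over all tested genes the 2 fresh libraries lay below the 2 at 12 h for 38.6% and above them for 23.6%. For the 77 mitochondrial ribosomal protein genes the counts were 67 below and 3 above. Their summed level was 1889 and 1477 RPKM in fresh cells and 3714 and 3329 at 12 h, and the median log2 change was 0.91, with 0.24 over all genes and 0.55 after centring. Mrpl34, a protein of the large subunit, read 16.6 and 7.52 RPKM in fresh cells and 116 and 97.7 at 12 h (log2 change 3.14, SE 0.42, adjusted p = 0.0239). Mrpl36 rose 6.53-fold, Mrpl55 5.91-fold and Mrpl42 4.71-fold. Not every member took part, as Mrps6 read 198 and 220 RPKM in fresh cells and 120 and 134 at 12 h and Mrpl32 64.6 and 53.0 and then 40.7 and 33.1, neither of which passed.

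Of 41 tested genes of mitochondrial import and quality control 4 rose and 0 fell, so that 9.76% were called, not far from the 6.81% of all genes, and their median log2 change was 0.79. Timm13, a chaperone of the space between the membranes, read 69.4 and 49.3 RPKM in fresh cells and 242 and 171 at 12 h. Clpp, the protease of the matrix, read 46.3 and 34.8 RPKM and then 140 and 110, and Phb2, a prohibitin, 33.8 and 35.0 and then 95.5 and 101. Timm21 rose 3.83-fold. The nuclear genes of oxidative phosphorylation had a similar median of 0.68 but only 1 of 89 passed, the complex I assembly factor Ndufaf6, from 16.1 and 11.7 RPKM to 57.1 and 52.8. The share of summed RPKM from the mitochondrial genome itself was 7.21% and 5.52% in fresh cells and 8.83% and 8.68% at 12 h. Of 48 proteasome subunit genes 0 passed in either direction. Their median log2 change was 0.71, and 35 of the 48 were higher and 0 lower in both 12 h libraries, against 38.6% higher and 23.6% lower in this way over all genes.

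Short transcripts and those rich in G and C were more often higher at 12 h, and the median transcript of the mitochondrial ribosomal protein genes is 1884 bases. The set of 6856 protein-coding genes with at least 5 RPKM on average was split into 5 bins of equal size. The median log2 change was 0.73 in the bin of the shortest transcripts (383 to 1764 bases) and 0.20 in that of the longest. Genes that rose numbered 128 in the shortest bin and 24 in the longest, and genes that fell 46 and 24. By GC content the median went from 0.17 in the lowest of 5 bins to 0.64 in the highest. The 2 libraries at 12 h differed by at most 0.03 in any bin of length. Fresh replicate 1 minus replicate 2 went from 0.23 in the shortest bin to -0.09 in the longest. With the medians of 25 combined bins of length and GC evened between libraries, a setting added after the data were seen, the median of mitochondrial ribosomal proteins was again 0.91 with 10 of them called, that of import genes 0.66 and that of the proteasome 0.64. In that setting 313 genes were higher and 427 lower.

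**Figure D3:**
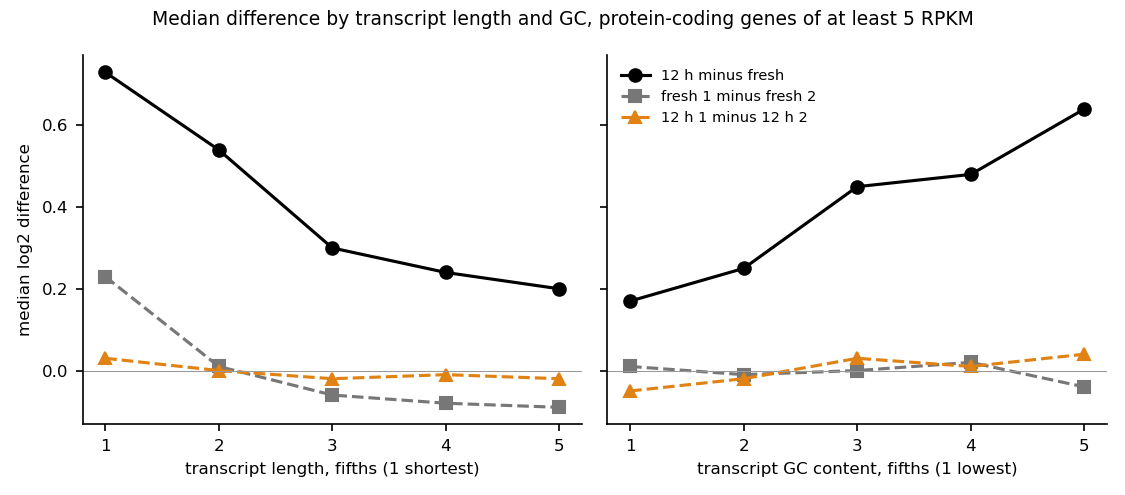
Median log2 difference of protein-coding genes with at least 5 RPKM on average, by 5 equal bins of transcript length (left) and GC content (right). The difference between 12 h and fresh cells falls from 0.73 to 0.20 with length and climbs from 0.17 to 0.64 with GC, and differences between replicates are smaller, the widest being 0.23 between the fresh libraries in the shortest bin.

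Some genes of the machines that make, trim and move RNA rose. Families were also read off the opening letters of gene symbols, 197 of them with at least 8 tested members, and the families given next were picked after their values were seen. Of 28 Polr genes, the subunits of the RNA polymerases, 5 rose and 0 fell, where 3.09% of all genes rose. Polr2i read 11.9 and 9.39 RPKM in fresh cells and 47.4 and 43.7 at 12 h, and Polr2e 26.8 and 27.1 and then 90.5 and 97.7. Polr2f and Polr2g rose as well. The large catalytic subunit gene Polr2a, at 77.3 and 51.0 RPKM in fresh cells and 80.4 and 100 at 12 h, did not pass. Of 9 genes of the RNA exosome, which degrades and trims RNA from the 3′ end, 2 rose, Exosc7 from 13.5 and 13.5 RPKM to 76.2 and 90.01 and Exosc4 from 15.98 and 14.3 to 51.5 and 73.7. Lsm4 and Lsm10, members of the ring proteins that hold small nuclear RNAs, were the 2 of 13 Lsm genes that rose. Xpo1, the main carrier of proteins and some RNAs out of the nucleus, went from 4.07 and 2.95 RPKM to 21.4 and 26.4 and was the 1 gene of 47 tested for the nuclear pore and its carriers that passed. In contrast 0 of 46 splicing factor genes and 0 of 23 aminoacyl-tRNA synthetase genes passed in either direction, and 1 of 61 genes of ribosome assembly did, Nop10, which rose 3.22-fold.

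All 10 tested Commd genes were higher in both 12 h libraries than in both fresh ones, and 3 of them passed, where over all tested genes 38.6% were higher in this way and 3.09% passed as higher. The family was picked after its values were seen. COMMD proteins form part of the Commander complex, which returns membrane proteins from endosomes to the cell surface. Commd4 read 49.8 and 31.0 RPKM in fresh cells and 198 and 171 at 12 h (log2 change 2.20, SE 0.35, adjusted p = 0.0294). Commd3 went from 15.4 and 15.2 RPKM to 74.5 and 66.5 and Commd5 from 8.78 and 5.27 to 22.8 and 38.6. The median log2 change of the family was 1.19, or 0.83 after centring. Genes of the Alg family, which build the sugar chain for N-glycosylation, had a median of 1.08, but 0 of 12 passed in either direction.

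**Figure D4:**
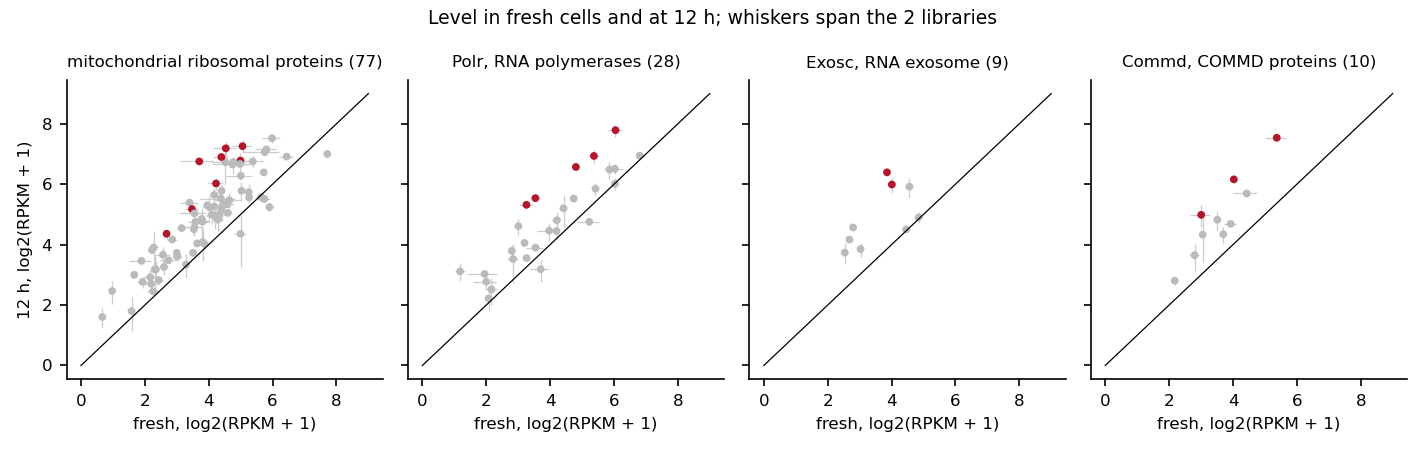
Members of 4 gene groups by level in fresh cells (horizontal) and at 12 h (vertical), as log2(RPKM + 1) of the mean, with whiskers to the values of the 2 libraries and red points for genes that passed as higher. Most points lie above the line of equal levels, the 10 Commd genes all do, and the few mitochondrial ribosomal protein genes below it include Mrps6.

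Enzymes that set the size and purity of the nucleotide pool rose in single steps. Of 47 tested genes of nucleotide synthesis and salvage, 7 rose and 0 fell, or 14.9% called against 6.81% of all genes. Dctd, which turns dCMP into dUMP, read 0.615 and 1.20 RPKM in fresh cells and 28.5 and 20.2 at 12 h (26.9-fold, adjusted p = 0.0198). Dctpp1, which breaks down dCTP, went from 18.7 and 11.5 RPKM to 196 and 108 (log2 change 3.22, SE 0.53, adjusted p = 0.03). Dut, the enzyme that keeps uracil out of DNA, rose 7.09-fold from 3.29 and 4.21 RPKM. Cda, cytidine deaminase, read 17.7 and 6.89 RPKM and then 78.2 and 114, and Nt5c, a nucleotidase, 19.03 and 16.8 and then 129 and 114. Nudt1, which clears oxidised purine nucleotides, rose 5.45-fold and Nme4, a mitochondrial kinase of nucleoside diphosphates, 6.72-fold. The list as a whole had a median log2 change of 0.59. In both 12 h libraries 25 of its members were higher and 6 lower, where over all tested genes 38.6% were higher and 23.6% lower.

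Of 49 tested genes of thiol and redox balance 4 rose and 3 fell, or 14.3% called against 6.81% of all genes. Txn1, thioredoxin, read 290 and 280 RPKM in fresh cells and 868 and 1020 at 12 h (log2 change 1.72, SE 0.33, adjusted p = 0.0365). Gstp1, a glutathione transferase, went from 193 and 102 RPKM to 633 and 575, and its relatives Gstm1 and Gstt1 went the other way. Gstm1 read 150 and 156 RPKM in fresh cells and 18.8 and 29.9 at 12 h, and Gstt1 177 and 161 and then 23.4 and 18.9. Selenop, the secreted selenium carrier made mainly by hepatocytes, fell 4.78-fold. Taldo1, transaldolase of the pentose phosphate pathway, rose 3.46-fold, and Nqo1, a quinone reductase, 13.4-fold from 1.82 and 3.099 RPKM. Sh3bgrl3, a small protein with a thioredoxin fold, rose from 255 and 164 RPKM to 1067 and 1166.

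Genes of ubiquitin and its relatives changed in both directions. Nedd8, whose product switches on cullin ubiquitin ligases, read 145 and 113 RPKM in fresh cells and 435 and 490 at 12 h (log2 change 1.84, SE 0.33, adjusted p = 0.0337). Of 60 ligases and deubiquitinases tested, 1 rose and 5 fell, or 10% called against 6.81% of all genes. Uchl5, a deubiquitinase of the proteasome, was the 1 that rose, from 8.93 and 9.66 RPKM to 29.4 and 34.6. Nedd4l, the ligase known for removing the epithelial sodium channel from the cell surface, read 41.1 and 52.8 RPKM in fresh cells and 2.59 and 4.37 at 12 h, 13.5-fold lower (log2 change -3.44, SE 0.46, adjusted p = 0.0239). Siah2 fell 7.25-fold and Otud1 10.1-fold.

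Moving ions and solutes is the main work of the duct. Of 57 tested genes of ion transport and pH, 2 rose and 9 fell, or 19.3% called against 6.81% of all genes. Their median log2 change was -0.19. The beta subunit of the sodium pump, Atp1b1, read 258 and 235 RPKM in fresh cells and 87.6 and 80.5 at 12 h (log2 change -1.54, SE 0.31, adjusted p = 0.0393). Small FXYD regulators of the pump moved in opposite directions, as Fxyd5 read 2.02 and 2.20 RPKM in fresh cells and 25.3 and 41.0 at 12 h while Fxyd1 read 15.5 and 21.7 and then 2.03 and 0.168, and both passed. The potassium channel gene Kcnq1 fell 10.5-fold from 43.4 and 32.7 RPKM to 0.642 and 6.58. Car13, a cytosolic carbonic anhydrase, read 27.1 and 29.6 RPKM and then 0.831 and 3.12, and Car3 and Car4 fell too. Car2, by far the highest carbonic anhydrase at 1361 and 1230 RPKM in fresh cells, read 860 and 269 at 12 h and did not pass. Values for Aqp1, a water channel, were 129 and 3.73 RPKM in the fresh libraries and 0.0909 and 0.0350 at 12 h, so that the fresh libraries themselves were far apart.

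Carriers for sugars and amino acids fell in 4 of 26 tested cases and rose in 0, or 15.4% called. Slc5a1, the sodium-coupled glucose carrier that cholangiocytes use to take glucose back from bile, read 27.5 and 38.2 RPKM in fresh cells and 0.558 and 4.003 at 12 h, 14.4-fold lower (adjusted p = 0.0348). Slc7a1, a carrier of cationic amino acids, fell 3.79-fold from 39.0 and 35.2 RPKM. Slc2a2, a glucose carrier typical of hepatocytes, read 10.7 and 8.42 RPKM and then 0 and 0.0240. Of all 203 tested solute carriers 69 were higher and 69 lower in both 12 h libraries, where over all tested genes 38.6% were higher and 23.6% lower. Their median log2 change was -0.00, and 6 rose and 14 fell, or 9.85% called against 6.81% of all genes. Those that rose included Slc52a2, a riboflavin carrier, from 4.30 and 5.05 RPKM to 45.8 and 42.5, Slc48a1, a haem carrier, 4.02-fold, and Slc25a4, which exchanges ADP and ATP across the inner mitochondrial membrane, 3.26-fold. Abcc4, an efflux pump for organic anions, read 13.5 and 15.4 RPKM and then 56.8 and 61.8 and was the 1 of 23 ABC transporters that passed.

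**Figure D5:**
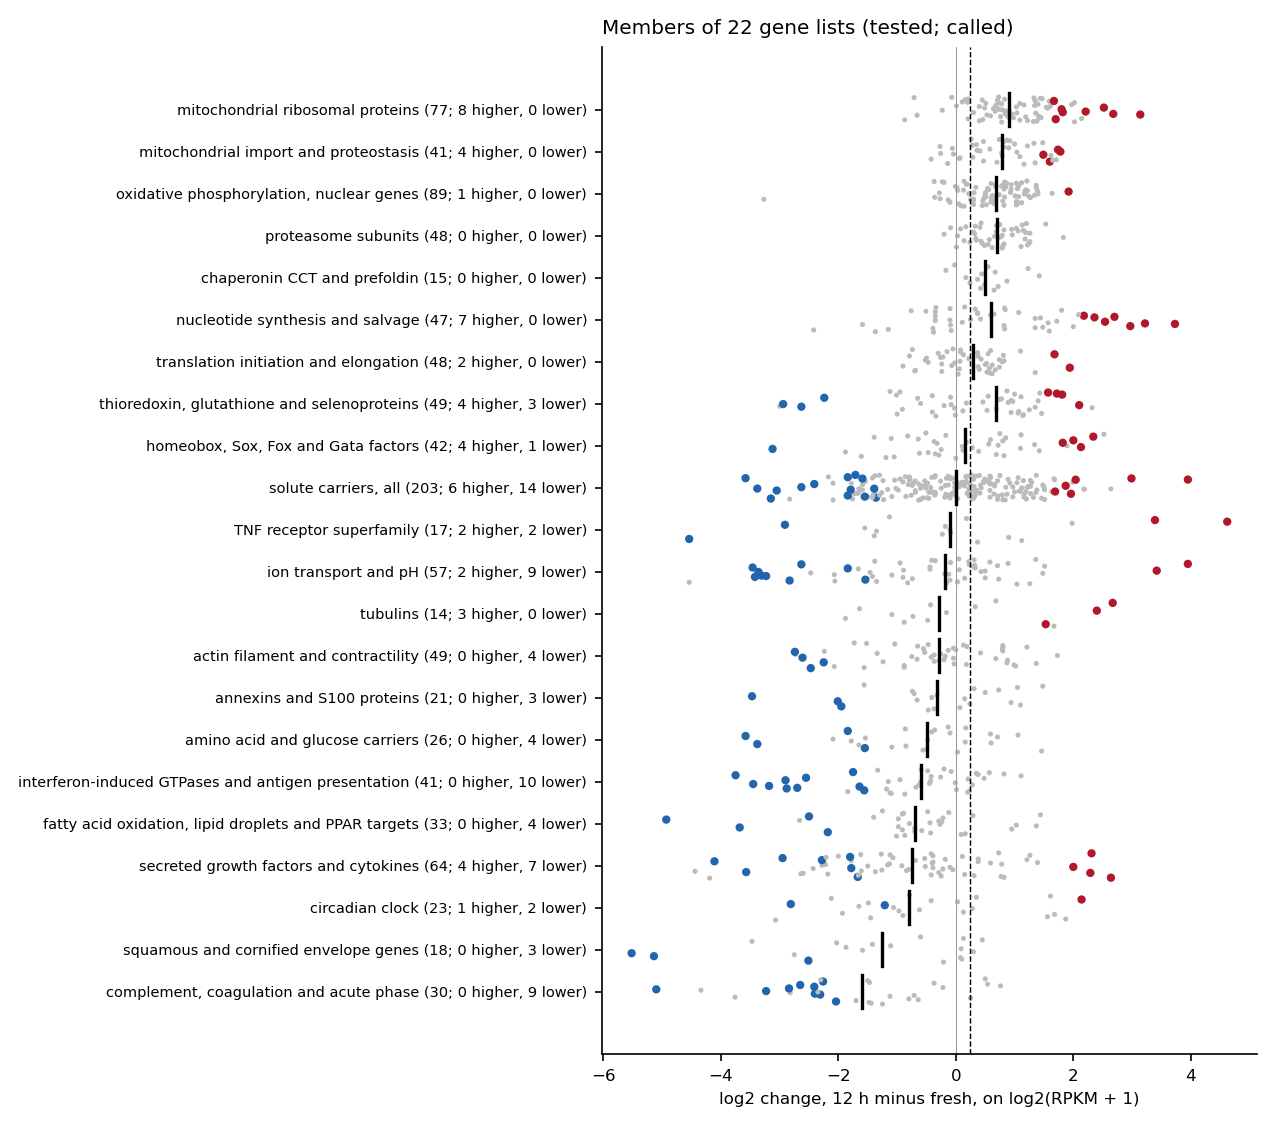
Log2 change of the tested members of 22 gene lists, with red for genes that passed as higher, blue for genes that passed as lower and grey for the rest; black bars are list medians and the dashed line is the median of all genes tested, 0.24. Mitochondrial ribosomal proteins have the highest median of these lists, 0.91, and complement and coagulation genes the lowest, -1.60.

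Tubulins form the microtubules of the cytoskeleton. Of 14 tested tubulin genes 3 rose and 0 fell, or 21.4% called against 6.81% of all genes, while the median of the list was -0.30. Tubb5, the beta tubulin of dividing cells, went from 36.7 and 54.3 RPKM to 231 and 251 (log2 change 2.40, SE 0.34, adjusted p = 0.0254). Tuba1b rose 3.14-fold and Tubg1, the gamma tubulin of centrosomes, 8.53-fold. Tubb6 read 313 and 449 RPKM in fresh cells and 84.0 and 172 at 12 h, Tubb2a 93.1 and 100 and then 29.4 and 22.02, and Tuba1c 269 and 245 and then 162 and 120, and these did not pass. The summed level of the 16 tubulins was 1085 and 1234 RPKM in fresh cells and 932 and 946 at 12 h. Of 49 actin and contractility genes 4 fell and 0 rose, and 8.16% called is near the 6.81% of all genes. Ablim1, an actin-binding LIM protein, fell from 10.2 and 5.79 RPKM to 0.467 and 0.674. Myl9, Cnn1 and Flnc, which are typical of contractile cells, fell as well, and of 14 mesenchymal and stellate markers 3 were tested and 0 passed. Among these Dcn read 8.12 and 2.58 RPKM and then 2.27 and 0.0221, while Rgs5, a marker of pericytes, read 66.9 and 61.0 and then 179 and 389. The summed level of the list was 81.9 and 65.5 RPKM in fresh cells and 181 and 389 at 12 h, and Col1a1, Col1a2 and Col3a1 were at 0 in both 12 h libraries. The part of such cells in these falls was not tested.

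Of 64 tested growth factor and cytokine genes 7 fell and 4 rose, or 17.2% called against 6.81% of all genes, and their summed level went from 5067 and 6664 RPKM to 1275 and 1432. Lif, a cytokine of the interleukin 6 family, read 85.2 and 134 RPKM in fresh cells and 6.65 and 4.13 at 12 h, 20.3-fold lower (log2 change -4.11, SE 0.69, adjusted p = 0.0308). Il11, a cytokine of the same family, moved the other way, from 0.456 and 0.594 RPKM to 4.44 and 5.79 (adjusted p = 0.046). Csf1, the macrophage growth factor, fell 15.6-fold from 40.5 and 39.2 RPKM and Tgfb2 8.97-fold from 27.5 and 33.4. Hbegf, an EGF receptor ligand, read 587 and 827 RPKM and then 188 and 217. Wnt7a, a Wnt ligand, rose 6.79-fold to 12.1 and 15.1 RPKM, and Ccn2, a matricellular factor, 7.11-fold to 10.2 and 17.0. Angpt2, a ligand of the TIE2 receptor, read 0.0355 and 0.0666 RPKM in fresh cells and 8.97 and 3.33 at 12 h. The guidance cue genes Sema6a and Sema4a fell, Sema6a from 23.5 and 28.4 RPKM to 2.74 and 2.28.

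Of 41 tested genes induced by interferon or serving antigen presentation 10 fell and 0 rose, or 24.4% called against 6.81% of all genes. In both 12 h libraries 22 of the 41 were lower and 5 higher, where over all tested genes 23.6% were lower and 38.6% higher. Ifi47, a GTPase induced by interferon gamma, read 31.9 and 20.51 RPKM in fresh cells and 2.08 and 0.914 at 12 h (log2 change -3.45, SE 0.50, adjusted p = 0.026). Irgm1, of the same family, fell 7.59-fold, and Iigp1 read 8.86 and 4.74 RPKM and then 0 and 0.0147. Oasl1, Rsad2 and Gbp6 fell too. The class II genes H2-Ab1, H2-Aa, H2-Eb1 and H2-DMa passed as lower, with H2-Ab1 at 37.4 and 24.8 RPKM in fresh cells and 3.09 and 4.72 at 12 h. The invariant chain gene Cd74 read 257 and 254 RPKM and then 136 and 100, and the class I gene H2-K1 880 and 1009 and then 683 and 542, and neither passed. Class II genes are also typical of immune cells. Of the 4 immune markers tested, Cd14 and Csf1r fell in the same libraries and 1 had a log2 change above 0. Ptprc was at 0.0143 and 0 RPKM in fresh cells and at 0 in both 12 h libraries.

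Matrix and barrier genes changed in single members. Krt23, a keratin, read 541 and 440 RPKM in fresh cells and 23.4 and 3.65 at 12 h, 36.2-fold lower (log2 change -5.52, SE 0.78, adjusted p = 0.0253). Ivl, which encodes involucrin of the cornified envelope, read 54.0 and 60.3 RPKM and then 1.71 and 0, and Dsg2, a desmosomal cadherin, fell 5.59-fold. These were the 3 of 18 tested squamous and envelope genes that passed, or 16.7% called against 6.81% of all genes. Thbs1, thrombospondin, read 93.3 and 123 RPKM and then 7.86 and 10.1, and Timp3, an inhibitor of matrix proteases, 23.1 and 25.5 and then 2.90 and 0.0339. Fbln2, a fibulin of basement membranes, was the 1 of 22 matrix genes that rose, from 9.63 and 15.7 RPKM to 63.3 and 111. Sdc1, a heparan sulfate proteoglycan of epithelia, rose 3.72-fold.

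Metabolic genes of the liver fell, and hepatocyte markers fell with them in the same libraries. Of 33 tested genes of fatty acid oxidation and its regulators 4 fell and 0 rose, or 12.1% called against 6.81% of all genes. Glul, glutamine synthetase, read 29.1 and 19.6 RPKM in fresh cells and then 0.733 and 0.720, 33.5-fold lower, and Cbs, of cysteine synthesis, and Arg2, mitochondrial arginase, fell as well. All 9 carboxylesterase genes tested were lower in both 12 h libraries and 6 passed. Over all tested genes 23.6% were lower in this way and 3.72% passed as lower. The family, picked after its values were seen, was led by Ces1d at 330 and 453 RPKM in fresh cells and 26.1 and 18.2 at 12 h. Of 30 tested complement, coagulation and acute phase genes 9 fell and 0 rose, or 30% called. Most of these belong to hepatocytes, but F3, which cholangiocytes and other epithelia also express, was the most abundant, at 2287 and 2344 RPKM in fresh cells and 306 and 627 at 12 h. The hepatocyte markers differed between the fresh libraries too, as Mup3 read 173 and 47.9 RPKM there and Fabp1 63.1 and 20.6. Their part in these falls was not tested.

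Single genes of lipid mediators and nuclear receptors fell, at about the share called over all genes. Of 31 tested genes of prostanoids and sphingolipids 2 fell and 0 rose, and of 28 nuclear receptors and coregulators 2 fell and 0 rose. These are 6.45% and 7.14% called against 6.81% of all genes. Ptgds, a prostaglandin D synthase, read 14.6 and 14.3 RPKM in fresh cells and was listed at 0 in both 12 h libraries, and Hpgd, which inactivates prostaglandins, read 13.5 and 13.3 and then 0 and 1.85. Nr1h4, the bile acid receptor FXR, fell 11.1-fold from 12.2 and 6.83 RPKM to 0.974 and 0.739. Nr1i2, the xenobiotic receptor PXR, read 2.95 and 2.02 RPKM and was then listed at 0 in both. Of the circadian clock 1 gene rose and 2 fell among 23 tested, or 13% called. Nr1d1, the clock repressor REV-ERB alpha, read 168 and 144 RPKM and then 22.2 and 20.7 (log2 change -2.81, SE 0.40, adjusted p = 0.026), while Per3 rose from 1.22 and 0.636 RPKM to 8.08 and 6.82. Npas2, a partner of the activator BMAL1, was listed at 0 at 12 h, and Arntl, which encodes BMAL1, read 20.2 and 21.1 RPKM and then 0.0986 and 5.02 without passing.

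Regulators of transcription and of message decay changed in both directions. Of 42 tested homeobox, SOX, FOX, GATA and related factors 4 rose and 1 fell, or 11.9% called. Sox4 read 14.1 and 16.3 RPKM in fresh cells and 61.4 and 106 at 12 h (log2 change 2.34, SE 0.44, adjusted p = 0.0365), and Onecut2, a factor of liver and biliary development, 15.2 and 14.1 and then 61.1 and 62.1. Hes6 and Id4, both of the helix-loop-helix class, rose 4.95-fold and 7.38-fold. Grhl1, a regulator of epithelial junction genes, read 9.23 and 8.34 RPKM and then 0.273 and 0. Zfp36, which destabilises messages with AU-rich ends, went from 272 and 339 RPKM to 25.1 and 31.5, 10.8-fold lower (adjusted p = 0.0189). Dusp1, a phosphatase that turns off MAP kinases, fell 4.57-fold and Dusp7, a phosphatase of ERK, rose 8.24-fold from 2.27 and 2.28 RPKM. Among 277 tested Zfp genes 3 rose and 6 fell, and 3.25% called is below the 6.81% of all genes.

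The promoters of genes that moved together were read for short motifs of well known factors. RefSeq promoters on GRCm38.p6, each 250 bases before to 50 after a gene's start, were found for 9064 tested protein-coding genes, 280 of them higher and 329 lower at 12 h. A gene counts as holding a motif if any of its windows has it on either strand, and 14 motifs were searched. CCGGAAG, a core of ETS family sites, was in the promoters of 21.0% of all these genes, of 29.6% of the higher (83 of 280) and of 4.56% of the lower (15 of 329). TGACTCA, the site of AP-1, was in 4.82% of all, 3.93% of the higher (11 of 280) and 12.2% of the lower (40 of 329). GGAAGTG, another core of ETS sites, was in 17.0% of all, 16.1% of the higher (45 of 280) and 33 of the 329 lower. A core of the NRF1 site was in 15.3% of all, 16.4% of the higher and 3.34% of the lower, and a core of the interferon response element in 3.59%, 2.86% and 7.29%. Over windows rather than genes, CCGGAAG was in 18.0% of all 11554, 26.4% of those of higher and 3.48% of those of lower genes. The median GC content was 60.7% over all windows, 62.0% for higher and 56.3% for lower genes, and the part of base composition in these shares was not tested. A match is a description of letters and not a sign that the factor binds.

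Promoters of 4 named genes are shown, chosen after the search because each holds 1 such motif and its gene is among those described above, a pair that rose and a pair that fell. Each is the 250 bases before the RefSeq start, 5′ to 3′ on the strand of the gene, with the motif in capitals.
Mrpl34, higher at 12 h, chr8:71464676-71464925, plus strand, CCGGAAG beginning 37 bases before the start: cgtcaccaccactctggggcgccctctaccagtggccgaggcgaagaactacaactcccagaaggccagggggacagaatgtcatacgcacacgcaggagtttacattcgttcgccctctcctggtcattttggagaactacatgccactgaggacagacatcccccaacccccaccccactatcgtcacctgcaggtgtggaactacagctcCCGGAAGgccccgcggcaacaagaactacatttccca
Nedd8, higher at 12 h, chr14:55671881-55672130, minus strand, CCGGAAG beginning 44 bases before the start: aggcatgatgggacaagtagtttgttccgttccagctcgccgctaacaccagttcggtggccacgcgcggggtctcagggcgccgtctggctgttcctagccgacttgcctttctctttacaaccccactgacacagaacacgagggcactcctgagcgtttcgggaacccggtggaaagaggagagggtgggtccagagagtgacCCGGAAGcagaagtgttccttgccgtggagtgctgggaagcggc
F3, lower at 12 h, chr3:121723287-121723536, plus strand, TGACTCA read on the other strand and beginning 135 bases before the start: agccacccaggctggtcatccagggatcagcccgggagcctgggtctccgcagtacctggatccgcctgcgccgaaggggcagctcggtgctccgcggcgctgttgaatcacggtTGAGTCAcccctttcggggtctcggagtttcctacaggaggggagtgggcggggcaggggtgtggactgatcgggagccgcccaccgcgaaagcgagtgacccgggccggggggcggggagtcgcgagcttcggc
Ivl, lower at 12 h, chr3:92573736-92573985, minus strand, TGACTCA beginning 116 bases before the start: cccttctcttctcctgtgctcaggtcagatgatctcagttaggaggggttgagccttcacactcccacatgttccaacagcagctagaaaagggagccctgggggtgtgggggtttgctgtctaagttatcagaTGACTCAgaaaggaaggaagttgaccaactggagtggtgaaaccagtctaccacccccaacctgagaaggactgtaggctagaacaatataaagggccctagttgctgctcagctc
These positions describe the 4 chosen promoters only, since positions over all promoters were not counted. They also depend on the RefSeq start, as GENCODE places the start of Mrpl34 further downstream, at 71464959. For Nedd8, on the minus strand, the GENCODE gene reaches further upstream, to 55672124. Most of the stretch printed for Nedd8 thus lies inside the gene as GENCODE places it.

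The later libraries show which of these early changes lasted in these data. They share the fresh libraries as their reference, so their values are given side by side without a test. Tubb5 read 297 RPKM at 24 h, 492 in the one titled 48h and, in organoids, 577 and 523, all above its 12 h values of 231 and 251. Mrpl34 stayed between 84.4 and 152 RPKM in the 4 later libraries, and Dctpp1 between 96.5 and 233. Others were high at 12 h and low again later. Fxyd5 was at 27.7 RPKM at 24 h, 6.08 in the one titled 48h, and in organoids 2.59 and 2.78, close to the 2.02 and 2.20 of fresh cells. Sox4 came down to 16 and 29.6 RPKM in organoids and Onecut2 to 12.7 and 20.4. Nqo1 read 18.3 RPKM at 24 h and 0.0466 and 2.36 in organoids. Syndig1, a membrane protein first described at synapses, read 7.19 and 5.90 RPKM at 12 h and was listed at 0 in the fresh and all later libraries.

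A further set was low at 12 h and present again later. Aldh1a2, a retinoic acid synthase, read 10.1 and 15.2 RPKM in fresh cells and was listed at 0 in both 12 h libraries, yet read 44.2 at 24 h, 16.5 in the one titled 48h, and in organoids 15.6 and 23.7. Kcnq1 came back to 42.8 and 27.7 RPKM in organoids and Timp3 to 30.0 and 23.1. Nrtn, a ligand of the GDNF family, read 8.84 and 12.2 RPKM in fresh cells, 0.747 and 2.16 at 12 h and 26.0 and 16.3 in organoids. In contrast Fas, Lif, Nedd4l, Sqstm1 and Ivl were below both fresh libraries in every later library. Values of Nedd4l there lay between 5.85 and 11.7 RPKM against 41.1 and 52.8 in fresh cells.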

How the data were processed

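Per the labels, RNA from sorted cells was purified on small columns, copied to full-length cDNA by Smart-seq2 and tagmented with Nextera XT. The authors deposited 1 table of RPKM for 47729 Ensembl genes and 8 libraries. The submitters' processing notes name GRCm38 and edgeR. The aligner, counter, annotation, strandedness and any scaling factor are unknown here, since no label gives them. The table had 0 columns of other samples.

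Symbols and positions came from GENCODE M21 (47224 genes named, 505 not). RPKM were tested as log2(RPKM + 1), without rescaling, with limma 3.58.1 in R 4.3.3: 5 group coefficients over all 8 libraries, eBayes with trend (3 residual and 3.65 prior degrees of freedom), two-sided, Benjamini-Hochberg over the 12900 genes that reached 1 RPKM in 2 libraries or more. Log2 changes understate low genes. Folds are ratios of mean RPKM over 2 libraries. Effective reads were read from values that are whole multiples of 1 read (within 0.01 for 88.2% to 91.2% of small values), and 3 reads, which is the upper limit where 0 was seen, are 0.0527 to 0.0983 RPKM in a 2 kb gene in these 4 libraries, for counting error only. On simulated tables with the spread of these data the test found 0% of 2-fold, 0.8% of 4-fold, 22.6% of 8-fold and 54.2% of 16-fold changes and called 0.0102% of unchanged genes. Over 10 such tables of 12900 genes, 500 genes were changed at each fold and 127000 were not. Each table thus held fewer changed genes than the 878 called here. Folds there were set on the log2(RPKM + 1) scale and not as ratios of RPKM, so these rates need not hold for these data. Lists are described by counts and medians beside all genes, without a set test. Members, lists and motifs were chosen with earlier results of these data known. Genes were named by rule: the 15 largest rises and falls, up to 4 passing genes per list and direction, the 10 largest gains and losses in RPKM, 8 genes listed at 0 in one group, and Epcam, Krt19, Sox9 and Alb. Family members and the later courses were chosen after values were seen, as were Tnfsf10, Dut, Nudt1, Nme4, Hbegf, Cd74, H2-K1, Aqp1, Car2, Arntl and further list members. A few genes are not reported here.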

Additional observations from a re-analysis of the deposited data

How the results depend on the processing

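Of the 398 higher and 480 lower genes, 327 and 173 were tested in all 13 alternatives and kept their direction in each, and 0 of the others changed direction in an alternative that tested them. The number of calls did not hold. With no filter 88 genes were higher. Library weights gave 870 higher and 731 lower. A mean of at least 5 RPKM left 197 lower and centring gave 839. Leaving out 1 library at a time gave 0 to 25 higher and 0 to 69 lower, with the lone library assumed to vary like the other groups. Same-numbered libraries deviated together only weakly (correlation 0.195 for fresh and 12 h, 0.224 for fresh and organoids, 0.0175 for 12 h and organoids). The numbers were not taken as pairs, and a replicate block gave 332 higher and 390 lower. With 2 libraries a group, changes of 4-fold or less were rarely found on simulated data, which held fewer changed genes than were called here. Over the 173 genes named, 1333 values across these alternatives kept direction and side of the threshold, 863 kept direction but no longer passed, 15 newly passed and 5 changed sign. Among single genes that did not pass, Clu turned to -0.06 with centring and -0.17 with the length and GC correction, and Epcam to 0.61 with quantile normalization. Leaving out 1 library gave -0.35 to 0.09 for Epcam and -0.52 to 0.17 for Sox9. The cause was not tested.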

Other observations

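A few genes of DNA copying and repair that passed are given here, picked after their values were seen and from no list, so they do not show what such genes did as a group. In the Mcm and Ercc families, which serve copying and repair, 0 of 10 and 0 of 9 tested members passed, where 6.81% of all genes did. Higher and lower in both 12 h libraries were 6 and 1 Mcm and 4 and 0 Ercc genes. Over all tested genes 38.6% were higher and 23.6% lower in this way. Pold1 and Pold2, subunits of DNA polymerase delta, read 2.01 and 2.20 RPKM and 10.8 and 13.8 RPKM in fresh cells and 15.9 and 12.8 and 75.1 and 62.2 at 12 h. Gins1, of the replicative helicase, read 1.17 and 0.904 RPKM and then 10.3 and 10.5. Rad50, of the complex that senses double-strand breaks, rose 9.86-fold, the Fanconi anaemia genes Fance and Faap20 4.28-fold and 8.21-fold, and Polh, a polymerase that copies past damage, 7.35-fold. Cdk4, a kinase of the first phase of the cell cycle, read 38.5 and 39.9 RPKM in fresh cells and 175 and 188 at 12 h. Bax, which opens the outer mitochondrial membrane in apoptosis, read 46.2 and 47.0 RPKM and then 232 and 254. All of these passed at an adjusted p of 0.05 in limma.

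A few chromatin genes that passed were picked in the same way. In their families 0 of 10 Hdac, 0 of 17 Kdm, 0 of 9 Chd and 0 of 8 Kmt genes passed. At the 6.81% called over all genes, families this small would hold few calls. Higher and lower in both 12 h libraries were 6 and 2 Hdac, 7 and 4 Kdm, 2 and 2 Chd and 6 and 0 Kmt genes. Over all tested genes 38.6% were higher and 23.6% lower in this way. The SWI/SNF remodeler genes Smarcb1, Smarcc1 and Smarcd2 rose between 3.76-fold and 5.71-fold. Hmga2, a DNA-bending protein of fetal and growing tissue, read 0.252 and 0.0934 RPKM in fresh cells and 6.15 and 7.08 at 12 h. H1f0, a linker histone, read 22.2 and 13.8 RPKM and then 96.3 and 121. Cpox, an enzyme of haem synthesis, rose 4.60-fold.

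Part of the T cell receptor beta locus was higher at 12 h. Trbc2, a constant region, read 2.08 and 0.609 RPKM in fresh cells, 20.1 and 10.4 at 12 h (adjusted p = 0.0375, limma), and 23.2 at 24 h, and was listed at 0 in the one titled 48h. The joining segment Trbj2-3 was listed at 0 in fresh cells and held 14 and 4 reads at 12 h. Cd3d, Cd3e and Cd3g, which a T cell receptor needs at the surface, were at 0 in all 8 libraries. Cd247, the zeta chain of the same complex, held 0 and 17 reads in fresh cells and 0 and 173 at 12 h.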
